A study of Mus musculus with 12 samples.

Results

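The Fc gamma receptor genes of the mouse, Fcgr1, Fcgr2b, Fcgr3 and Fcgr4, and Fcer1g, the gene of the signalling chain that the activating receptors share, were followed in MC38 tumors of 8 kinds of host. The 5 genes were chosen by name, as the complete set of classical mouse Fc gamma receptors with their common chain, out of 27457 genes in the count table, of which 26938 had a count in at least 1 cell. All 5 had counts and all 5 passed the filter on low counts in every comparison.

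Fc gamma receptors sit on the surface of white blood cells and bind the constant part of immunoglobulin G. FcγRI (Fcgr1), FcγRIII (Fcgr3) and FcγRIV (Fcgr4) pair with the gamma chain (Fcer1g), whose ITAM motif starts an activating signal, whereas FcγRIIB (Fcgr2b) carries an inhibitory ITIM in its own tail. In tumors, macrophages are the main cells to carry all of them, and the balance of activating and inhibitory receptors is known to shape how macrophages deal with antibody-coated cells and with therapeutic antibodies.

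MC38 is a colon carcinoma line of C57BL/6 origin, and 500000 of its cells were placed under the skin of female mice aged 8 to 12 weeks. The hosts were C57BL/6J (B6) or the F1 offspring of C57BL/6J and one of 7 Collaborative Cross (CC) strains, CC001/UncJ, CC002/UncJ, CC007/UncJ, CC036/UncJ, CC075/UncJ, CC079/TauUncJ and CC080/TauUncJ, so every host carried at least 1 C57BL/6J copy of each autosomal gene. Each mouse received a single 200 µg dose of antibody, either anti-PD-1 (aPD1, clone 29F.1A12) or an isotype control (clone 2A3), at a tumor size of 75 to 110 mm3. The interval from dose to tissue was 48 h, and sorting of the thawed cells was set to 90% CD45+ and 10% CD45-. An Fc receptor blocking reagent was used on the cells before hashtag staining, which covers receptor protein and not RNA. The study classed CC001F1, CC002F1 and CC075F1 hosts as responders to aPD1 (20 tumors) and CC036F1, CC079F1 and CC080F1 hosts as non-responders (18 tumors), and B6 and CC007F1 (10 tumors) are used here outside that contrast.

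The 48 tumors were read as 12 pools of 4 hashtagged specimens, and the table held 93126 cells with a median of 3333.5 UMIs (unique molecular identifiers, 1 per captured RNA molecule) per cell. Each tumor contributed 53 to 3082 cells and 88816 to 17713491 UMIs, and 3 tumors had under 500 cells. The smallest, a CC007F1 aPD1 tumor of pool 6, held 30 macrophages. Of the cell barcodes, 4990 occurred in more than 1 pool, which covers 10176 cells. No hashtag was used for both treatments, so hashtag and treatment cannot be told apart, and 1 animal identifier stood on 2 CC080F1 tumors (isotype in pool 3, aPD1 in pool 4). Levels below are CPM, the UMIs of a gene scaled to a common total of all UMIs summed over the macrophages of 1 tumor, unless a cluster is named. Because the assay reads 1 end of each transcript, a CPM is used to compare 1 gene between samples and not to rank genes against each other.

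Fcgr2b, Fcgr4, Fcgr3 and Fcer1g lie within 275.7 kb of chromosome 1 (GRCm38), at 170958617-170976547 on the minus strand, 171018920-171029761 on the plus strand, 171051174-171064935 on the minus strand and 171229572-171234365 on the minus strand. Fcgr1 lies apart from them on chromosome 3, at 96282909-96293969 on the minus strand. The upstream sequences of Fcgr1, Fcgr4 and Fcer1g, the 3 genes that passed the test between hosts in the results that follow, and of Fcgr2b, which had the largest p, are shown so that a reader can see which letters they hold. Each is the 250 bases before the RefSeq gene start (GRCm38.p6), 5′ to 3′ on the gene's own strand, with matches to 3 motifs in capitals: TTCNNNGAA (the GAS element bound by STAT dimers), GAAA followed after a gap of 2 bases by GAAA (the ISRE bound by interferon regulatory factors) and GAGGAA (the core bound by PU.1, the master factor of myeloid cells), each searched on both strands.

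Fcgr1, chr3:96293970-96294219, minus strand: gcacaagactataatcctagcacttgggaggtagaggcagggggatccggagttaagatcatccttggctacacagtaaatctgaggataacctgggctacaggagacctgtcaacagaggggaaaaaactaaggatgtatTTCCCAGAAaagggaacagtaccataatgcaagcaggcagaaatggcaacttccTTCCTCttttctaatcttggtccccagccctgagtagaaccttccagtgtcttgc

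Fcgr4, chr1:171018676-171018925, plus strand: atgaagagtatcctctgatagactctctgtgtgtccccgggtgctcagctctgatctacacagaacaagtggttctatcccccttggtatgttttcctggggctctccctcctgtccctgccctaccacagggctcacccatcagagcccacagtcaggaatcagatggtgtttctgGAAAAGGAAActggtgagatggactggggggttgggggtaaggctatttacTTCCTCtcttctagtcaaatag

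Fcer1g, chr1:171234350-171234599, minus strand: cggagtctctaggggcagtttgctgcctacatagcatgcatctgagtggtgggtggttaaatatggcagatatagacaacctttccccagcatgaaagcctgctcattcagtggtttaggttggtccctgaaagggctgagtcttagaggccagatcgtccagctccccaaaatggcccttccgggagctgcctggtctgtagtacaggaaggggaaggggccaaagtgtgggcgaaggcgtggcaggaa

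Fcgr2b, chr1:170976072-170976321, minus strand: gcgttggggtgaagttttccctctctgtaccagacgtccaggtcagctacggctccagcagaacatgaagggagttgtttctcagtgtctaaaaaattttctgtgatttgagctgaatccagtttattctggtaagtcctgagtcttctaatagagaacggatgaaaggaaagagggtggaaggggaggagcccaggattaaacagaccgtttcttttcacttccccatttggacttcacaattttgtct

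The Fcgr1 window ends where the gene span given above begins. For the other 3 the RefSeq start differs from that span: the Fcgr2b window lies wholly inside the span of Fcgr2b, and the windows of Fcgr4 and Fcer1g reach into theirs by under 20 bases.

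The Fcgr1 window held 1 GAS match, TTCCCAGAA, with its first base at -109 from the start. The Fcgr4 window held 1 ISRE match, GAAAAGGAAA, with its first base at -73. Both also held the PU.1 core on the opposite strand (read as TTCCTC), with its first base at -55 in Fcgr1 and at -22 in Fcgr4, and the matches did not overlap. The 2 annotated Fcgr3 starts had the PU.1 core alone, and no match to the 3 motifs was found in the windows of Fcgr2b and Fcer1g. Over all 32851 promoter windows of 300 bases (250 before the start and 50 after), 8.298% held the GAS letters, 3.443% the ISRE letters and 28.276% the PU.1 core, so these matches describe the letters of the windows and are not shown to be bound sites.

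Fcgr2b and Fcgr3 also share coding sequence, which bears on how far their counts can be separated. The longest run common to both was 129 bases, all coding, and spanned exons 3 and 4 in each gene (chr1:171054167-171057792 in Fcgr3, transcript with 5 exons, and chr1:170966674-170968081 in Fcgr2b, transcript with 8 exons, both on the minus strand).

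Run shared by Fcgr3 and Fcgr2b: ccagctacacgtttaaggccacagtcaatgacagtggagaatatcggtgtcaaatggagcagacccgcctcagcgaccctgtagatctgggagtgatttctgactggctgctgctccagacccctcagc

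The assay reads from the 5′ end, so windows of 90 bases were counted in the first 600 bases of each transcript. Of 511 such windows, 64 of Fcgr3 (12.524%) also occurred in Fcgr2b, and 40 of Fcgr2b (7.828%) also occurred in Fcgr3. Over whole transcripts the shares were 5.087% of 1258 windows and 1.852% of 3455 windows. No other pair of the 5 genes shared a window of that length. A read that falls wholly inside this stretch cannot be given to either gene by its letters, so the values of Fcgr2b and Fcgr3 are uncertain, and how many reads fell there was not measured here.

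The question of which cells carried the genes was addressed with the clusters the study deposited. Of the 27 clusters, 10 were macrophage-like by their markers (68059 cells), and all 4 receptor genes were high in most of them. The clusters were made from the expression of the same cells, so the levels by cluster are a description with no test. Whether these genes were among those used for clustering is not known here. Fcgr1 reached 674 CPM in cluster 21, a macrophage-like cluster of 4300 cells led by the interferon-induced genes Ifit3, Ifit2 and Rsad2, against 310 CPM in cluster 5 and 276 CPM in cluster 2. Over the tumors with at least 20 cells of the cluster, Fcgr1 was 665 ± 120 CPM (SD, n = 45, lowest 460.0) in cluster 21 and 305 ± 84.3 CPM (n = 47) in cluster 5. The gap between these means is larger than the SD of either cluster, although single tumors overlap.

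Fcgr4 had its highest level in the same cluster (247 CPM), but its neighbours in the order were near: the granulocytic cluster 16 was at 194 CPM and cluster 5 at 177 CPM. Per tumor, Fcgr4 was 255 ± 91.5 CPM in cluster 21 (n = 45) and 180 ± 88.9 CPM in cluster 5 (n = 47), a gap smaller than either SD. The same tumors supply both clusters, and differences within tumors were not computed. Fcgr2b showed another order, highest in cluster 5 (920 CPM) and cluster 2 (906 CPM), and lower in cluster 21 (645 CPM). Fcgr3 followed clusters 5 (472 CPM), 9 (461 CPM) and 2 (460 CPM) and was at 411 CPM in the granulocytic cluster. Fcer1g was highest in cluster 21 (4141 CPM), with cluster 26 (3969 CPM) next. The lowest macrophage-like cluster for all 4 receptors was cluster 15, at 51.9 CPM of Fcgr1, 149 CPM of Fcgr2b, 87.4 CPM of Fcgr3 and 25.1 CPM of Fcgr4, and it was led by the osteoclast genes Ctsk and Acp5.

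**Figure D1:**
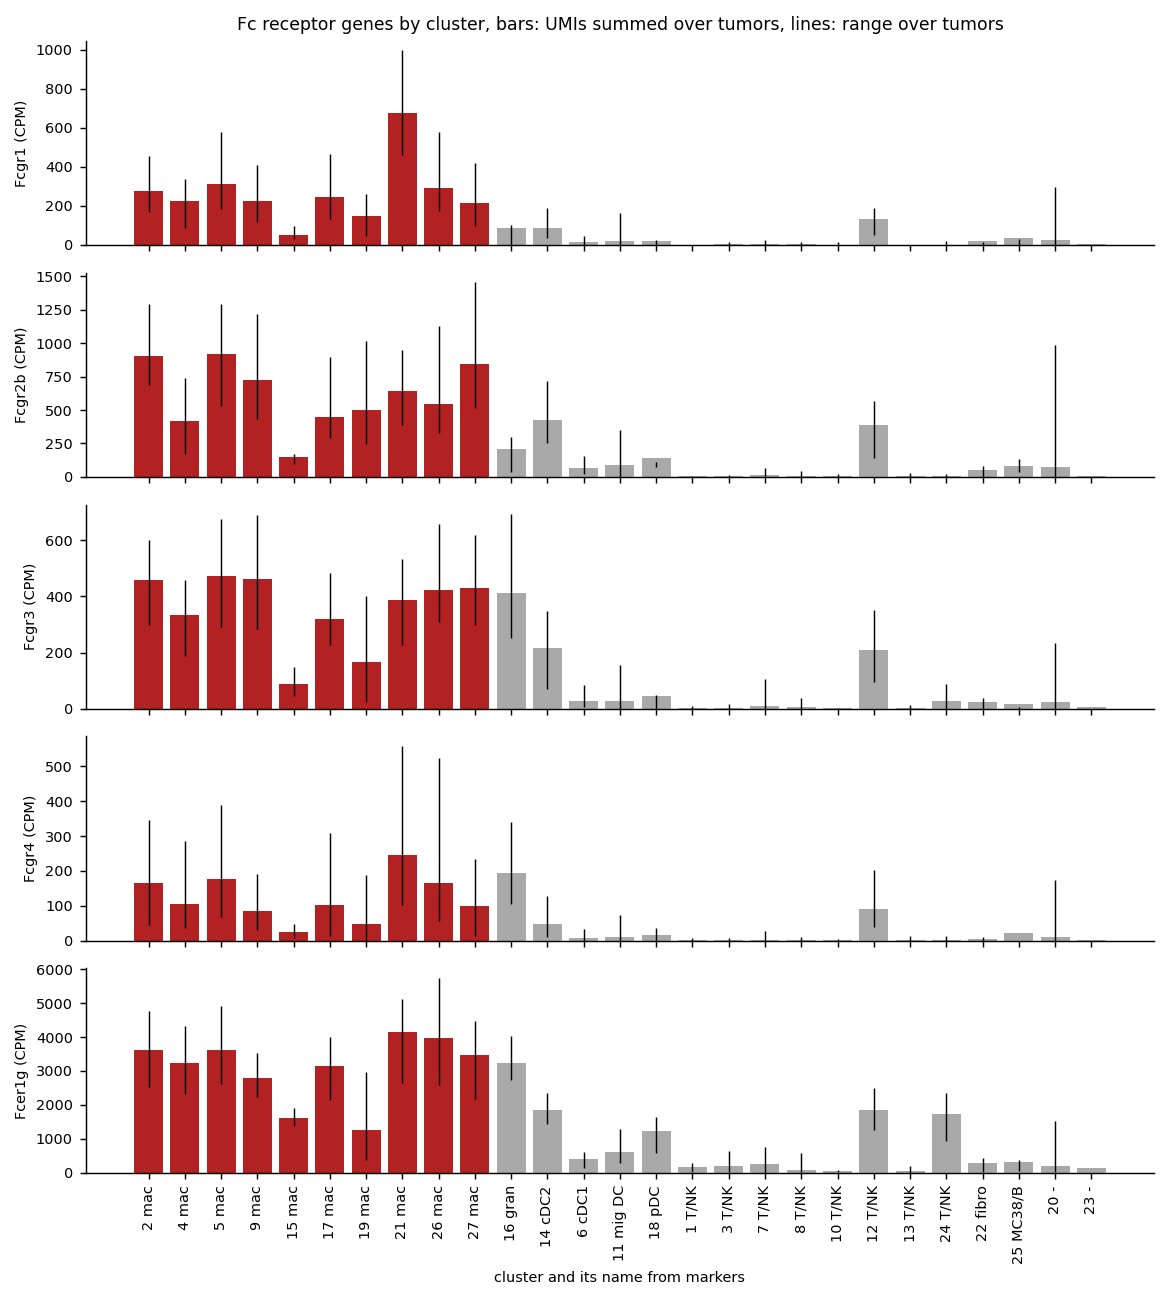
Bars give the level of each gene (CPM of the UMIs of a cluster summed over tumors, linear axis) in the 27 clusters, with macrophage-like clusters in red, and lines give the lowest and highest tumor with at least 20 cells of the cluster. The interferon-led macrophage cluster 21 is highest for Fcgr1 (674 CPM), Fcgr4 (247 CPM) and Fcer1g (4141 CPM), Fcgr2b is highest in cluster 5 (920 CPM), and among the T/NK clusters the NK-gene cluster 24 stands out for Fcer1g. The levels of cluster 12 are not read as those of a lymphoid cell.

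Among dendritic cells the receptors were highest in the cDC2-like cells. Their cluster 14 had 88.4 CPM of Fcgr1, 428 CPM of Fcgr2b, 215 CPM of Fcgr3 and 48.7 CPM of Fcgr4. The cDC1-like cluster 6 had 67.0 CPM of Fcgr2b and 17.4 CPM of Fcgr1, and the migratory cluster 11 had 90.6 CPM of Fcgr2b and 22.3 CPM of Fcgr1. Per tumor these 2 clusters overlapped, with Fcgr2b at 64.4 ± 27.3 and 93.2 ± 71.2 CPM (SD). Plasmacytoid-like cells (cluster 18) had 142 CPM of Fcgr2b, 22.5 CPM of Fcgr1 and 1231 CPM of Fcer1g.

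Lymphoid cells were used to gauge RNA from other cells in the droplets, with Lyz2, an abundant myeloid transcript, as the measure of it. In the T cell clusters 3, 7 and 8, Fcgr1 was at 2.24 to 2.88 CPM and Fcgr4 at 1.02 to 2.46 CPM. The ratio of Fcgr1 to Lyz2 UMIs was 0.0115 to 0.0494 across the T/NK clusters other than cluster 12 and 0.0424 in macrophage cluster 2, and the Fcgr1 level in T cells is read as background. In the plasmacytoid-like cluster 18 the ratios of Fcgr1 (0.0305), Fcgr4 (0.0212) and Fcgr3 (0.0619) were at or below those of cluster 2 (0.0424, 0.0254 and 0.0706), so these 3 levels cannot be told apart from RNA of other cells, whereas Fcgr2b (0.1925) and Fcer1g (1.6684) were above (0.139 and 0.5546). In the cDC1-like cluster Fcgr1 stood at 0.0626 and Fcgr2b at 0.2412, and in the migratory cluster at 0.0991 and 0.4023, above cluster 2 for both genes. The highest macrophage-like ratios were 0.1216 (cluster 21) for Fcgr1 and 0.2387 (cluster 19) for Fcgr2b. Both Fcgr1 values and the Fcgr2b value of cluster 18 lay below these, and cannot be told apart from RNA of other cells. Fcgr2b was close to that ratio in the cDC1-like cluster and above it in the migratory cluster. In the cDC2-like cluster 14, Fcgr1 (0.0509) and Fcgr4 (0.0281) lay below the 0.1216 and 0.0446 of cluster 21. Neither level can be told apart from RNA of other cells. Fcgr2b of cluster 14 (0.2467) was close to the 0.2387 of cluster 19, and its Fcgr3 (0.1242) was above the 0.0795 of cluster 19. Cluster 24, which carried the NK cell genes Ncr1 and Klrb1c, differed by gene. Its Fcgr1 (5 UMIs), Fcgr4 (6 UMIs) and Fcgr2b (29 UMIs) stood to Lyz2 at 0.0237, 0.0284 and 0.137, close to the 0.0424, 0.0254 and 0.139 of cluster 2. Its Fcgr3, the receptor known from NK cells, stood at 0.564 (119 UMIs) against 0.0706 in cluster 2, and its Fcer1g at 33.3 (7034 UMIs) against 0.5546. Over the macrophage-like clusters, the ratio of Fcer1g to Lyz2 ran from 0.3117 (cluster 9) to 1.4352 (cluster 15). It was above that range in cluster 1 (4.08), cluster 3 (4.01) and cluster 7 (2.93). In cluster 8 (1.43), cluster 13 (1.28) and cluster 10 (0.640) it lay within that range. Fcgr3 stood at 0.1141 in cluster 7 (51 UMIs) and 0.1134 in cluster 8 (39 UMIs), and at 0.0588 to 0.0805 in clusters 1, 3, 10 and 13. The highest macrophage-like ratio of Fcgr3 was 0.0795 (cluster 19). Cluster 12 was led by hemoglobin genes and by the cytotoxic lymphocyte genes Gzmf, Gzma, Gzmb and Prf1, and had 390 CPM of Fcgr2b. Its ratios to Lyz2 were 0.0466 for Fcgr1, 0.1361 for Fcgr2b and 0.6469 for Fcer1g, near those of cluster 2, and it held 7360 Lyz2 UMIs in 535 cells, against 459 in the 2809 cells of cluster 3. Receptor RNA of its own cells, of macrophages in the same droplets and of free RNA cannot be told apart there, and no doublet caller was run, so its receptor levels are not read as those of a lymphoid cell.

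Host genotype was compared next, in macrophage sums of all 48 tumors, with edgeR's quasi-likelihood test over 8 hosts and Benjamini-Hochberg (BH) adjustment over all genes. Fcgr1 (adjusted p = 2.41e-06), Fcgr4 (adjusted p = 3.35e-05) and Fcer1g (adjusted p = 0.0046) differed between hosts, and Fcgr3 (adjusted p = 0.163) and Fcgr2b (adjusted p = 0.519) did not pass, in a comparison that called 51.7% of 12510 genes. With the pool as a replicate block 1671 of 13010 genes were called, and Fcgr1 (adjusted p = 1.49e-05), Fcgr4 (0.000102) and Fcer1g (0.00393) passed as before. With the background of 51.7%, 3 of 5 members called is not a result about the family, and the values of each gene are what follows. Each sum pools 10 macrophage-like clusters, so a shift in their shares and a change of RNA per cell cannot be told apart in it. Within clusters 2, 5 and 26 alone Fcgr4 also passed between hosts (edgeR, adjusted p = 6.12e-05, 1.82e-06 and 9.95e-05). These fits called 4139 of 10266, 2184 of 9183 and 3550 of 10729 genes. Reads of all hosts were aligned to GRCm38, whereas F1 hosts also carry a CC copy of each autosomal gene. How far differences of that copy from GRCm38 change the counts was not tested.

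Fcgr4, the activating receptor for IgG2a and IgG2b, ranged from 57.03 to 356 CPM over the 48 tumors (mean 166 ± 80.1). It was lowest in CC079F1 hosts, at 75.3, 57.03 and 76.8 CPM in the isotype tumors and 98.4, 66.8 and 62.9 CPM in the aPD1 tumors. In B6 hosts it was 131, 329.7 and 210.3 CPM with isotype and 230.1, 228 and 269.8 CPM with aPD1. Every CC079F1 tumor lay below every B6 tumor.

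In CC036F1 hosts Fcgr4 was 187, 61.6 and 126 CPM with isotype and 112, 71.6 and 112 CPM with aPD1, which overlaps the lowest B6 tumor. Against B6, Fcgr4 differed by -1.73 ± 0.29 (log2, SE) in CC079F1 (edgeR, adjusted p = 2.96e-05, where 26.1% of genes were called) and by -1.16 in CC036F1 (adjusted p = 0.0083, where 6.25% were called). The remaining hosts did not pass against B6. These contrasts had no pool term, and CC079F1 (pools 1, 2 and 5) shared no pool with B6 (pools 6 to 8). Host and pool cannot be told apart in that contrast. In pool 8, Fcgr4 was 187 CPM in CC036F1 and 210.3 CPM in B6 with isotype, and 112 and 269.8 CPM with aPD1. CC080F1 tumors ranged most widely among the non-responders, at 189, 259.5 and 86.9 CPM with isotype and 138, 108 and 123 CPM with aPD1.

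Of the responder hosts, CC002F1 had Fcgr4 at 116, 178 and 281 CPM with isotype and 269.9, 261 and 269 CPM with aPD1. CC075F1 had 309.8, 138 and 154 CPM with isotype and 211, 356 and 195 CPM with aPD1. CC001F1 was lower, at 98.3, 161, 124 and 105 CPM with isotype and 131, 313, 132 and 136 CPM with aPD1. The CC001F1 aPD1 tumor of pool 2 stood apart from the other 3 of its group. In CC007F1 hosts the isotype tumors were at 109 and 204 CPM and the aPD1 tumors at 107 and 195 CPM, the former aPD1 tumor being the smallest one, in which Fcgr4 rested on 5 UMIs.

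Fcgr1, the high-affinity receptor, was highest in CC075F1 hosts, at 567, 456 and 435 CPM with isotype and 301, 486 and 433 CPM with aPD1. It was lowest in CC036F1 hosts, at 247, 190.3 and 272 CPM with isotype and 209, 180.0 and 263 CPM with aPD1. In B6 hosts Fcgr1 was 297, 401 and 264 CPM with isotype and 304, 292 and 291 CPM with aPD1. Against B6, Fcgr1 was higher by 0.50 (log2) in CC075F1 (edgeR, adjusted p = 0.016, where 4.43% of genes were called) and differed by -0.53 in CC036F1 (adjusted p = 0.0082). No CC075F1 tumor shared a pool with B6, so host and pool cannot be told apart there. In pool 8, Fcgr1 was 247 CPM in CC036F1 and 264 CPM in B6 with isotype, and 209 and 291 CPM with aPD1.

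The means of Fcgr1 in the other 5 F1 hosts lay between 266 and 288 CPM and did not pass against B6, where the background of calls was 16.3% for CC001F1, 5.95% for CC002F1, 1.14% for CC007F1 and 4.22% for CC080F1. The interferon-led cluster 21, where Fcgr1 was highest, made up 7.27% of macrophages in CC075F1, 4.65% in CC036F1 and 7.51% in B6 hosts, and was the largest share in CC080F1 (8.45%). Between hosts Fcgr1 passed within cluster 2 (adjusted p = 0.000514, edgeR), cluster 5 (2.72e-05) and cluster 26 (8.48e-09), each taken alone, and did not pass within cluster 21 (0.0849). The fits called 4139 of 10266 genes in cluster 2, 2184 of 9183 in cluster 5, 3550 of 10729 in cluster 26 and 1037 of 6523 in cluster 21.

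Fcer1g varied less, with host means from 2862 ± 454 CPM (CC036F1, n = 6) to 3910 ± 359 CPM (CC002F1, n = 6), and passed against B6 in CC036F1 alone (-0.40, edgeR adjusted p = 0.027). The call between hosts was lost in cluster 5 alone (adjusted p = 0.111), cluster 21 alone (0.103) and all cells of the tumor (0.189). Fcgr2b, the inhibitory receptor, had host means between 636 ± 69.2 CPM (CC001F1, n = 8) and 819 ± 199 CPM (CC036F1, n = 6), and Fcgr3 between 372 ± 35.3 CPM (CC080F1, n = 6) and 466 ± 33.9 CPM (CC002F1, n = 6). Fcgr3 passed between hosts in cluster 2 alone (edgeR, adjusted p = 0.0137) and cluster 5 alone (0.0301), and when pool 6 (0.0446) or pool 10 (0.0231) was left out. The cluster fits called 4139 of 10266 and 2184 of 9183 genes. Without pool 6 and without pool 10, 6614 of 12997 and 6102 of 12433 genes were called.

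**Figure D2:**
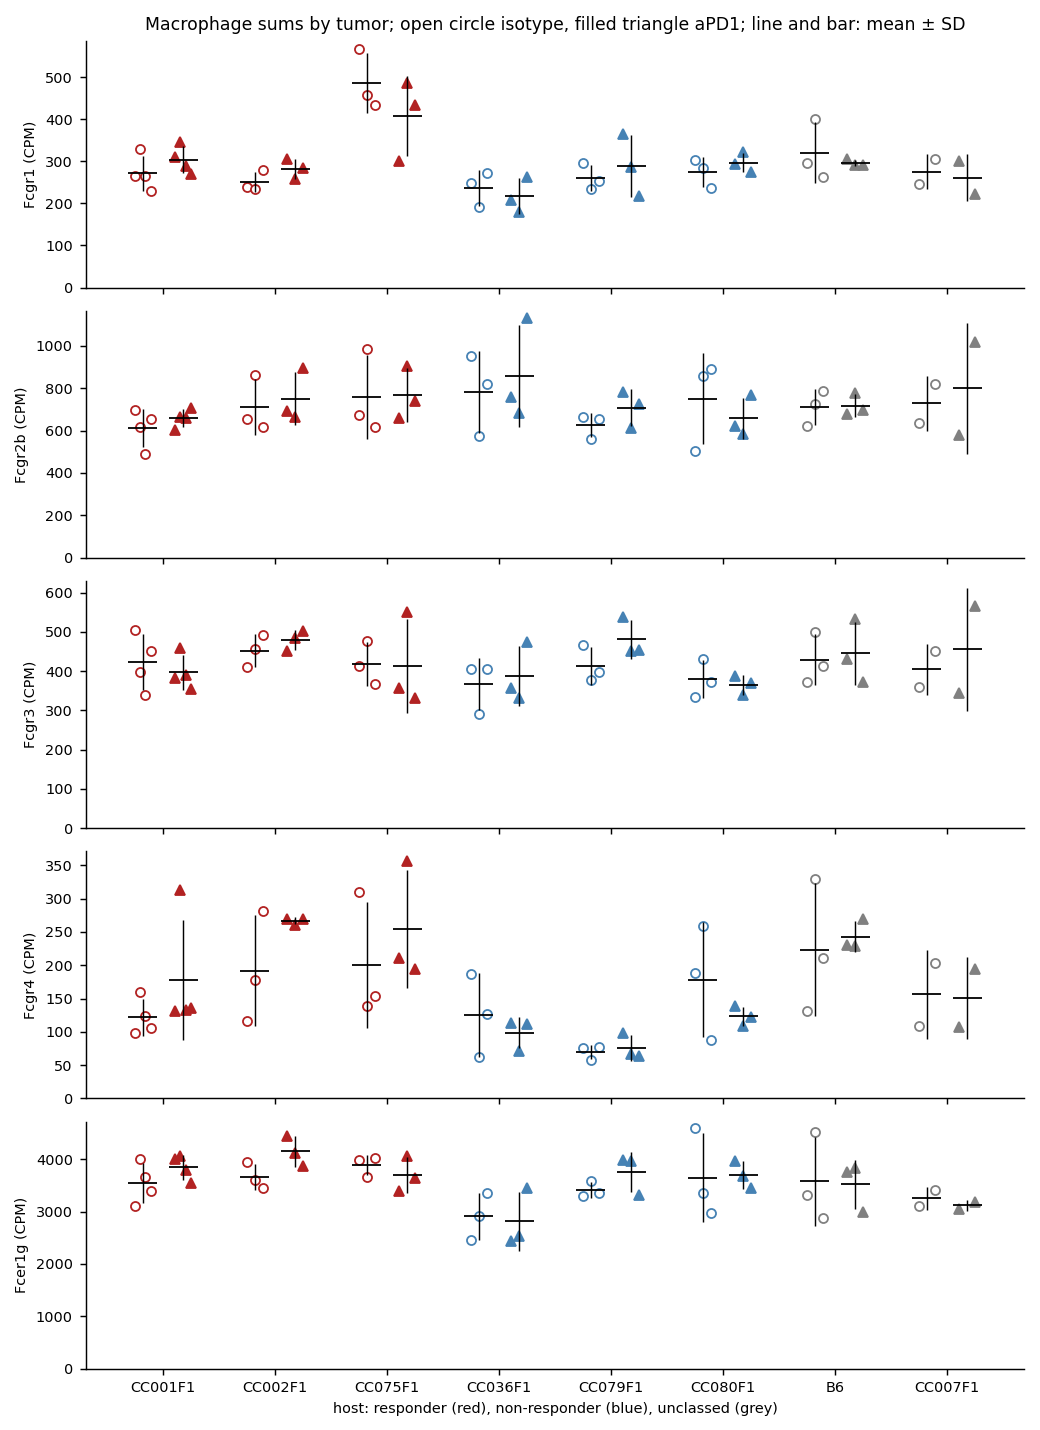
Each symbol is the macrophage sum of 1 tumor (CPM), as an open circle for isotype and a filled triangle for aPD1, with the mean and SD of each host and treatment in black and hosts colored by class. Fcgr4 is lowest in CC079F1 (57.03 to 98.4 CPM) and Fcgr1 is highest in CC075F1 (301 to 567 CPM), while the hosts overlap for Fcgr2b and Fcgr3.

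The contrast of the study's classes asks whether macrophages of hosts that respond to aPD1 differ in these receptors. Of the 5 genes, Fcgr4 and Fcgr1 passed as higher in responders over the 38 tumors, and Fcer1g, Fcgr3 and Fcgr2b did not pass. The class belongs to the host, and the fit had no host term. Its p-values therefore measure spread between tumors and not between hosts. In sums of 1 host each Fcgr4 did not pass, and neither did Fcgr1 (0.39, edgeR adjusted p = 0.998). Fcgr4 had 98.3, 169 and 356 CPM (lowest, median, highest) in the 20 responder tumors and 57.03, 103 and 259.5 CPM in the 18 non-responder tumors, with means of 197 ± 80.3 and 112 ± 53.9 CPM. The groups overlapped: the highest 7 of 20 responder values exceeded the whole non-responder range, and the lowest 8 of 18 non-responder values fell short of the whole responder range. Fcgr4 was higher in responders by 0.85 ± 0.20 (log2, SE, edgeR's quasi-likelihood test, adjusted p = 0.00681), in a comparison that called 6.4% of 11646 genes (454 higher and 291 lower, or 325 higher and 509 lower with library size scaling alone).

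The Fcgr4 difference held when any 1 pool was left out (0.72 to 1.02) and in clusters 2, 5, 26 and 21 taken alone (0.78, 0.86, 0.99 and 0.58). It did not pass without CC079F1 (0.60, adjusted p = 0.107), in pools 1 to 5 alone (0.68, adjusted p = 0.289) or in 6 sums of 1 host each (0.96, adjusted p = 0.818), and it passed in pools 8 to 12 alone (1.02, adjusted p = 0.0252). Split by treatment, it was 1.26 ± 0.21 in aPD1 tumors (adjusted p = 0.00127) and 0.42 ± 0.30 in isotype tumors (adjusted p = 1). With aPD1, the responders spanned 131 to 356 CPM and the non-responders 62.9 to 138 CPM, and 3 of 10 responder values and 1 of 9 non-responder values lay in the shared range.

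Fcgr1 had 230.0, 295 and 567 CPM (lowest, median, highest) in responders and 180.0, 268 and 366 CPM in non-responders, and 5 of 20 responder values exceeded the whole non-responder range. The difference was 0.37 ± 0.11 (edgeR, adjusted p = 0.0296) and depended on single hosts. It fell to 0.14 without CC075F1 (edgeR, adjusted p = 0.349) and to 0.26 without CC036F1 (0.176). Without CC079F1 the difference was no smaller (0.40), but its SE was larger (0.125 against 0.107) and it did not pass (0.0569). It also fell short of the threshold without pool 2 (0.36, 0.0869), pool 8 (0.34, 0.0591), pool 9 (0.27, 0.132), pool 10 (0.30, 0.114) or pool 11 (0.31, 0.114), was 0.03 (0.941) in pools 1 to 5 alone and 0.72 (0.0152) in pools 8 to 12 alone, the CC075F1 tumors being all in pools 9 to 11. Within single clusters it was 0.39 (0.0257) in cluster 5, 0.50 (0.00402) in cluster 26, 0.34 (0.0507) in cluster 2 and 0.16 (0.439) in cluster 21. Cluster 21 made up 5.64 ± 2.62% of the macrophages in responder tumors and 6.69 ± 2.14% in non-responder tumors.

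Fcer1g had 3101, 3835 and 4457 CPM (lowest, median, highest) in responders and 2448, 3366 and 4604 CPM in non-responders, and was just short of the threshold (0.21 ± 0.07, edgeR, adjusted p = 0.0508). With the pool as a replicate block it passed (0.18, adjusted p = 0.017), as it did with a batch term (0.23, 0.0102) and in pools 8 to 12 alone (0.38, 0.0258). The batch term set pools 1 to 6 against pools 7 to 12, a split made here that no label gives. All CC079F1 tumors fell in the first set and all CC036F1 and CC075F1 tumors in the second. Leaving out each host in turn gave 0.09 (without CC036F1, adjusted p = 0.327) to 0.29, and 6 sums of 1 host each gave 0.21 (adjusted p = 1). Fcer1g passed when pool 1, pool 3 or CC080F1 was left out. Fcgr3 had medians of 432 CPM in responders and 392 CPM in non-responders, with a difference of 0.15 ± 0.07 (adjusted p = 0.264). Fcgr2b had medians of 662 and 706 CPM, with a difference of -0.01 ± 0.09 (adjusted p = 0.986) whose sign turned with several settings.

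**Figure D3:**
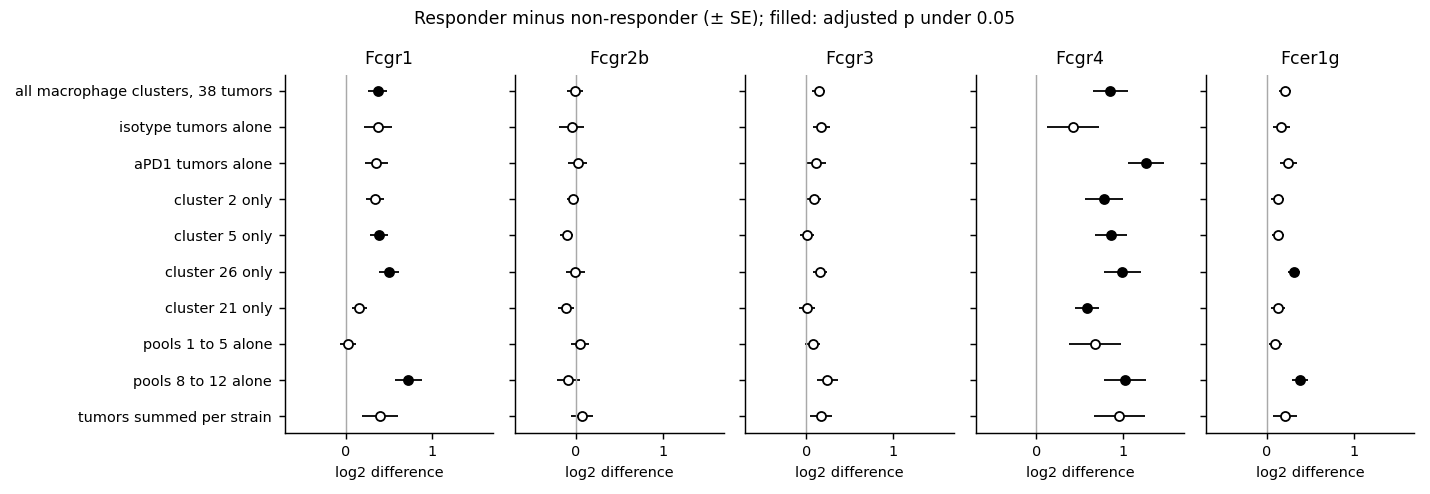
Log2 difference of responder minus non-responder macrophages for each gene (points, with SE as bars) in all 38 tumors and in 9 subsets or sums, filled where the adjusted p was under 0.05. Fcgr4 is at 0.85 with all tumors and 1.26 with aPD1 tumors alone, Fcgr1 is at 0.03 in pools 1 to 5 and 0.72 in pools 8 to 12, and Fcgr2b and Fcgr3 are open throughout.

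Markers of other cells in these macrophage sums were compared between the classes as well. The summed cDC1 markers (Xcr1, Clec9a, Batf3 and Cadm1) were at 166 ± 54.8 CPM (45.2 to 259.6) in responder tumors and 101 ± 46.1 CPM (41.5 to 238) in non-responder tumors, and their part in the Fcgr4 difference was not tested. The cDC1-like cluster itself had 8.9 CPM of Fcgr4, below every macrophage sum. The defining genes Xcr1 and Clec9a made up 1.17 and 9.49 CPM of that sum in responders and 0.365 and 3.12 CPM in non-responders. The granulocytic list was at 124 ± 60.2 CPM (62.8 to 308) and 109 ± 39.2 CPM (65.8 to 214). Its genes S100a8 and S100a9 were at 21.7 and 5.06 CPM in responders and 9.96 and 2.36 CPM in non-responders, and Csf3r was at 34.5 and 25.3 CPM. The other genes of the list went the other way: Gsr (55.7 and 62.4 CPM), Cxcr2 (0.312 and 0.513 CPM) and Retnlg (0.184 and 0.202 CPM). Fcgr4 itself was at 194 CPM in the granulocytic cluster. The T/NK list was at 9.13 and 8.26 CPM. The migratory dendritic cell list was at 6.19 and 3.82 CPM. The summed plasmacytoid markers (Siglech, Ccr9 and Klk1) were at 1.83 ± 0.49 and 1.21 ± 0.40 CPM. Klk1 went the other way (0.024 and 0.0466 CPM). That sum left out Bst2 (525 and 472 CPM) and Tcf4, which also went the other way (130 and 142 CPM). The summed cDC2 markers (Cd209a, Flt3, Clec10a and Cd80) were at 62.3 and 76.6 CPM, and left out Sirpa (341.0 and 340.7 CPM). B cell markers were at 7.12 ± 3.06 CPM (3.20 to 14.1) in responders and 34.7 ± 92.4 CPM (up to 391) in non-responders, with Igkc at 1.11 and 27.1 CPM. The MC38 list was at 2.86 and 3.86 CPM and the fibroblast list at 6.15 and 6.41 CPM. The part of these lists in the differences was not tested.

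The balance of the receptors was described as the log2 ratio of activating (Fcgr1, Fcgr3 and Fcgr4 summed) to inhibitory (Fcgr2b) UMIs in macrophages. It averaged 0.44 ± 0.24 in responder tumors and 0.10 ± 0.31 in non-responder tumors, a difference of 0.34, about as large as the larger SD. The difference was 0.33 in isotype tumors and 0.36 in aPD1 tumors. By host, the mean ratio was lowest in CC036F1 (-0.18) and highest in CC075F1 (0.52), with B6 at 0.44, CC001F1 at 0.41, CC002F1 at 0.40, CC079F1 at 0.25, CC080F1 at 0.22 and CC007F1 at 0.18. Without CC036F1 the class difference was 0.20, and with each of the other hosts left out it was 0.31 to 0.42.

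The effect of 1 dose of aPD1 was compared with isotype within hosts. Over all 48 tumors none of the 5 genes passed, in a comparison that called 0% of 12510 genes with edgeR (385 at an unadjusted p under 0.05, and 0 with DESeq2). Fcgr4 differed by 0.17 ± 0.14, and it was higher with aPD1 in 14 of 24 pairs of tumors of 1 host from 1 pool. Fcgr1 was higher in 15 of 24 pairs, Fcgr2b in 15 and Fcgr3 in 15, with differences of 0.02 to 0.07.

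Taken by class, Fcgr4 was higher with aPD1 in 8 of 10 responder pairs (median 0.39, from -0.55 to 1.36) and in 4 of 9 non-responder pairs (median -0.17, from -1.25 to 0.49). In the responder fit it differed by 0.54 ± 0.20 (edgeR, adjusted p = 0.274), where 0.00847% of genes were called, or 1 of 11800 (3 with the replicate block of host and pool, 22 with DESeq2). In the non-responder fit it differed by -0.23 ± 0.21 (adjusted p = 1), where 0% were called (176 of 11899 at an unadjusted p under 0.05, and 0 with DESeq2). The difference between these effects was 0.78 ± 0.31 (edgeR interaction, adjusted p = 0.382), where 0.00813% were called, or 1 of 12302, and Fcgr4 did not pass.

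The CC075F1 pairs show how far single tumors moved. Fcgr4 went from 309.8 to 211 CPM in pool 9, from 138 to 356 CPM in pool 10 and from 154 to 195 CPM in pool 11. Fcgr1 in the pool 9 pair went from 567 to 301 CPM and moved by less than 0.1 (log2) in the others. Fcgr1, Fcgr2b, Fcgr3 and Fcer1g did not pass in either class or in the interaction.

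**Figure D4:**
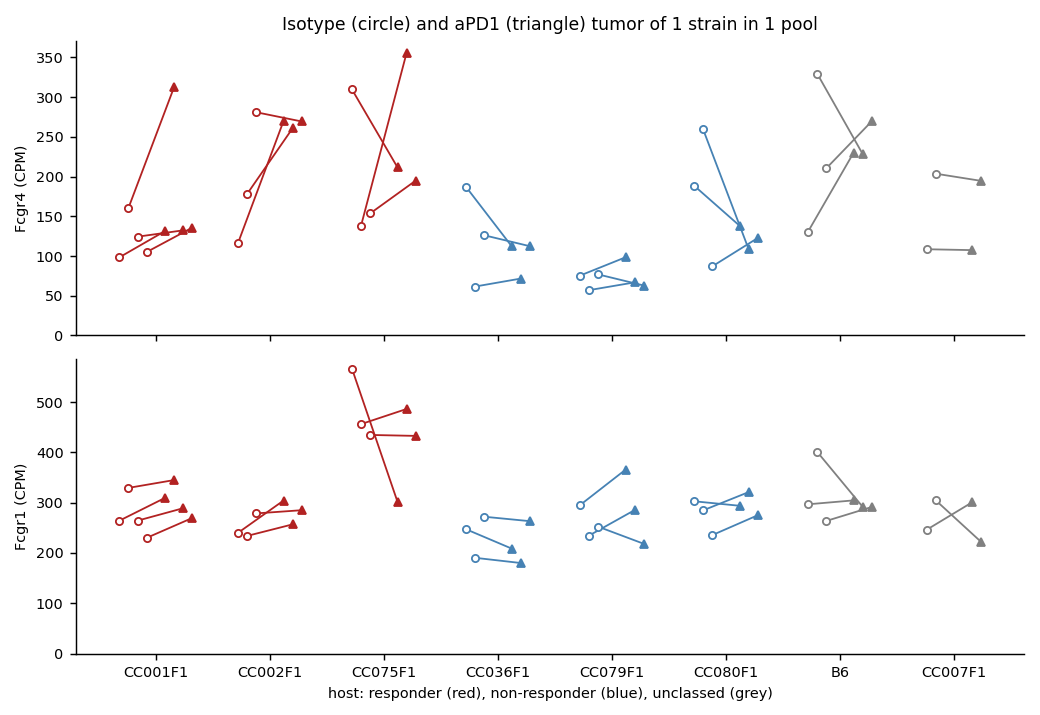
Fcgr4 (top) and Fcgr1 (bottom) in macrophages (CPM), with a line from the isotype tumor (circle) to the aPD1 tumor (triangle) of the same host in the same pool. Of the responder pairs 8 of 10 rise for Fcgr4, and of the non-responder pairs 4 of 9.

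The other genes of Fc receptor signalling were read from a list of 45 genes. In the class contrast 1 of 35 tested passed, against 6.4% of all genes: Lcp2 (the adaptor SLP-76, 0.17 ± 0.05, edgeR adjusted p = 0.0264). The list had 1 call higher and 0 lower, and the median difference over the list was 0.07, against -0.01 over all genes tested. None passed in the aPD1 fits or the interaction.

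Between hosts 26 of 36 passed, against 51.7% of all genes: 13 of 16 activating signalling genes, 5 of 9 inhibitory signalling genes, 4 of 5 of the adaptor and the receptors that pair with Fcer1g, and 4 of 6 other immunoglobulin receptors. The smallest p-values were those of Fcrla (an Fc receptor-like protein, adjusted p = 1.45e-19), Pira2 (a paired immunoglobulin-like receptor, 1.89e-10), Vav3 (a guanine nucleotide exchange factor, 1.45e-06), Lat2 (an adaptor, 7.62e-05), Clec4e (Mincle, 0.000212) and Gab2 (an adaptor, 0.000264). Pira2 has near-identical copies, so its counts are uncertain.

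Relations across the 48 tumors were computed for the 5 genes and Cxcl9, the interferon-gamma-induced chemokine, as log2(CPM + 1) of macrophage sums, 15 pairs in all, each with a two-sided permutation test of 100000 draws, where 1e-05 is the smallest p the draws can give. Fcgr4 and Cxcl9 moved together most closely (Pearson r = 0.84, Spearman rho = 0.87, adjusted p = 0.00015). The value was 0.86 within pools 1 to 6, 0.81 within pools 7 to 12, 0.83 without the 2 tumors farthest from the median of Fcgr4 and 0.79 with the mean of each host subtracted. Tumors share depth and composition in both genes, since both come from the same sums. The 48 tumors are 24 pairs that share host and pool, and the draws treat them as exchangeable. Over the aPD1 minus isotype differences of the 24 pairs, Fcgr4 with Cxcl9 gave r = 0.67 (permutation adjusted p = 0.00315).

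Fcgr1 and Fcer1g (r = 0.59, rho = 0.63), Fcgr2b and Fcgr3 (r = 0.55, rho = 0.52) and Fcgr1 and Fcgr4 (r = 0.53, rho = 0.51) followed, each with a permutation adjusted p of 0.000262. Within pools 1 to 6 and within pools 7 to 12, Fcgr1 with Fcer1g gave 0.40 (permutation adjusted p = 0.168) and 0.76, Fcgr2b with Fcgr3 gave 0.73 and 0.54, and Fcgr1 with Fcgr4 gave 0.37 (adjusted p = 0.185) and 0.65. Fcgr2b and Fcgr3 share the coding run printed above, and its part in their relation was not tested. Fcgr2b with Fcgr1 was at 0.04. Over the differences of the 24 tumor pairs, Fcgr1 with Fcer1g gave 0.71 (permutation adjusted p = 0.00015), Fcgr2b with Fcgr3 0.57 (0.0187) and Fcgr1 with Fcgr4 0.48 (0.0666), and 3 of 15 relations passed by Pearson's r. By Spearman's rho Fcgr1 with Fcgr4 (0.57, permutation adjusted p = 0.0133), Fcgr4 with Fcer1g (0.64, 0.0062) and Fcer1g with Cxcl9 (0.53, 0.0228) also passed over these differences. In all 9 of 15 pairs of genes passed over the 48 tumors, and those other than these 4 had r of 0.33 to 0.38. In pools 1 to 6 alone 2 of 15 passed by Pearson's r, Fcgr4 with Cxcl9 and Fcgr2b with Fcgr3. By Spearman's rho Fcgr4 with Fcer1g (0.58, permutation adjusted p = 0.0166) and Fcer1g with Cxcl9 (0.56, 0.0181) also passed there.

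**Figure D5:**
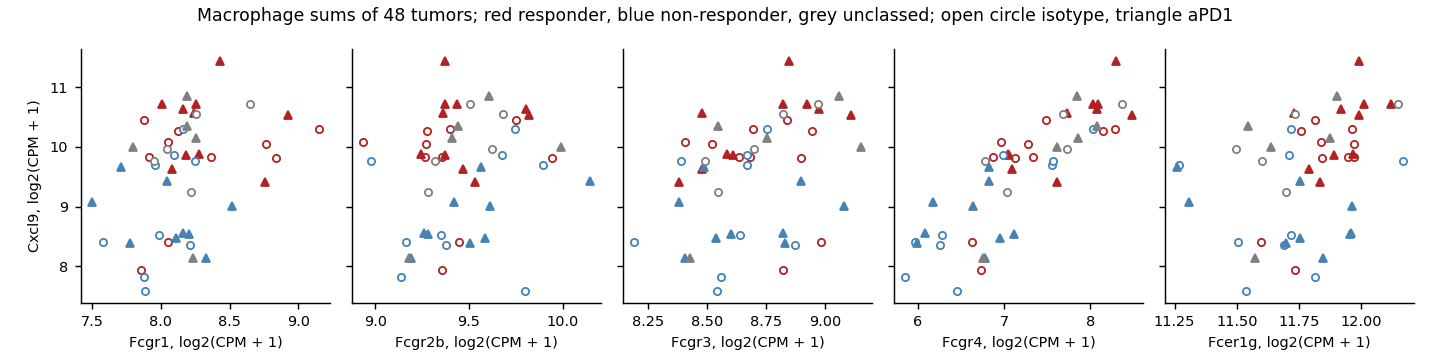
Each of the 5 genes (horizontal axis) against Cxcl9 (vertical axis) in the macrophages of the 48 tumors, both as log2(CPM + 1), colored by class, with open circles for isotype and triangles for aPD1. The points for Fcgr4 lie along 1 band (r = 0.84) that holds tumors of both classes, and the other panels are more scattered.

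The genes whose macrophage levels ran most alike were named by Pearson r over the 48 tumors among 3090 genes of at least 50 CPM, as a description with no test. For Fcgr4 they were Ly6a (0.93), Ifitm1 (0.90), Calhm6 (0.90), Tap1 (0.88) and Igtp (0.88). For Fcgr1 they were Rtp4 (0.74), Phf11b (0.73), Oasl2 (0.72), Ifitm3 (0.70) and Mbd2 (0.69). Several of these are known as interferon-induced genes, but the share of such genes among all 3090 was not measured. No gene was named for both Fcgr4 and Fcgr1. Only the genes of highest r were named, and overlap further down the order was not tested.

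For the inhibitory receptor Fcgr2b the closest genes were Emb (0.74), Slc7a2 (0.71), F10 (0.70), Dapk1 (0.70) and Ltb4r1 (0.67). For Fcgr3 they were H2-D1 (0.68), Ctsh (0.68), March2 (0.67), Clec4n (0.64) and Kxd1 (0.61). For Fcer1g they were Pfn1 (0.77), Cst3 (0.76), Ptpn6 (0.75), Tmem134 (0.74) and Vps28 (0.73). Over the 27 clusters instead of tumors, the closest gene was Lyz2 for Fcgr1 (0.98), Cd300c2 for Fcgr2b (0.98), Itgam for Fcgr3 (0.96), Clec5a for Fcgr4 (0.98) and Fcgr3 for Fcer1g (0.94).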

How the data were processed

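Single-cell RNA-seq (10x 5′ chemistry) of sorted MC38 tumors was analysed from the table of raw UMI counts deposited by the authors, with their cell annotation (pool, host, treatment, cluster). According to the methods of the study, reads were processed with Cell Ranger against GRCm38, cells with much mitochondrial or ribosomal RNA were removed, and clusters were made in Seurat 5.0.1 after batch correction. The counts were not corrected, and no doublet caller was run here. Every value in the table was whole, and 0 columns belonged to other samples.

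Groups were taken from the labels, and the response class from the study. The replicate was the tumor. Clusters were named by markers, with Fcgr1 left out of the macrophage markers. UMIs were summed over the 10 macrophage-like clusters per tumor and tested across all genes with edgeR 4.0.16 (quasi-likelihood, TMM, filterByExpr, BH, threshold 0.05; R 4.3.3), with DESeq2 1.42.0 as an alternative, and adjusted p-values were taken over all genes tested. Tumors needed at least 20 macrophages. Correlations over tumors were tested by permutation with numpy 2.4.6, with ranks from SciPy 1.17.1. On simulated counts the class fit recovered 67 of 100 genes changed by 0.5 (log2) and 100 of 100 changed by 1, with 10 false calls among 11646 genes, and the aPD1 fit 83 and 100, with 8 false calls among 12510. These counts were drawn independently for each tumor, with the same spread setting for every gene and no host or pool effect. They therefore do not measure false calls that host or pool differences can give in the class fit.

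The isotype and aPD1 tumor of 1 host in 1 pool were processed as 1 library (per the labels), so 24 pairs could be formed. Their deviations correlated at -0.29 to 0.70 (median 0.34, over 0.1 in 21 of 24) over 3090 genes. The 5 genes were named in all comparisons. Of the pathway list, up to 6 called genes with the smallest p were named, and for likeness the 5 genes of highest r. The members and lists were chosen with earlier results of these data known. Motifs and shared runs were searched in RefSeq (GRCm38.p6) promoter windows, which matched all 5 genes, and in GENCODE transcripts. Protein sequences were not used here. Replicates were separate tumors of inbred crosses in shared pools, and totals of summed counts set the precision of each level.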

Additional observations from a re-analysis of the deposited data

Results flagged for a closer look

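A sample far from the rest was looked for in groups of 4 to 10 tumors, for each gene and the receptor ratio. Of 36 such combinations of group and measure, where chance gives about 1 in 20, 2 had such a tumor. Some groups lie within others and the ratio is built from the genes, so the 36 are not independent. Fcgr2b was 1131 CPM in the CC036F1 tumor of pool 10 among the 9 non-responder aPD1 tumors, the next being at 783 CPM. Fcgr4 was 313 CPM in the CC001F1 tumor of pool 2 among the 4 CC001F1 aPD1 tumors, the next being at 136 CPM.

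In some hosts every pair moved one way and in others every pair moved the opposite way, and these differences were not tested. Fcgr1 was higher with aPD1 in 4 of 4 CC001F1 pairs (median log2 0.18) and 3 of 3 CC002F1 pairs (0.13), and lower in 3 of 3 CC036F1 pairs (-0.080). Fcgr4 was higher in 4 of 4 CC001F1 pairs (0.39) and lower in both CC007F1 pairs (-0.040). Fcer1g was higher in 4 of 4 CC001F1 pairs (0.055) and 3 of 3 CC002F1 pairs (0.18), and lower in both CC007F1 pairs (-0.061). In the CC007F1 pair of pool 6 the aPD1 tumor had 30 macrophages and 5 Fcgr4 UMIs, and the differences were -0.0148 for Fcgr4 and -0.0248 for Fcer1g, so the sign of that pair is not informative.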

How the results depend on the processing

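The cause of the changes below was not tested. The batch term is the split of pools 1 to 6 from pools 7 to 12, made here and not given by the labels. The class contrast called 745 genes, and 359 in cluster 2, 349 in cluster 5, 96 in cluster 21, 407 in all cells, 263 in pools 1 to 5, 395 in pools 8 to 12, 22 in isotype tumors and 3 in sums per host, and 462 to 778 with each pool left out in turn (462 without pool 2, 491 without pool 9). Leaving out each host gave 590 to 899.

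The Fcgr4 class difference (0.85) did not pass in pools 1 to 5 (0.68), isotype tumors (0.42) and sums per host (0.96). It was 0.60 to 1.14 with each host left out. Fcgr1 (0.37) did not pass with library size scaling (0.33), no filter (0.36), cluster 2 (0.34), all cells (0.36), cluster 21 (0.16, chosen after seeing the data), pools 1 to 5 (0.0309), isotype (0.37) or aPD1 tumors alone (0.35) and sums per host (0.39), with 0.27 to 0.44 over pools and 0.14 to 0.48 over hosts left out. Fcer1g (0.21) passed with DESeq2 (0.21), a batch term (0.23), without small tumors (0.22), without the tumors of 1 identifier (0.25), in cluster 26 (0.31), in pools 8 to 12 (0.38) and with the replicate block (0.18), and was 0.16 to 0.26 over pools and 0.0941 to 0.29 over hosts left out. Fcgr2b (-0.01) turned positive with the replicate block (0.0031), in pools 1 to 5 (0.0467), aPD1 tumors (0.0201) and sums per host (0.0696), and was -0.0358 to 0.0257 over pools and -0.074 to 0.0763 over hosts left out.

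The aPD1 count (0) was 4 with a batch term. In responders the count (1) was 22 with DESeq2, 9 without a filter, 3 with the replicate block and 0 to 2 with each pool left out, and Fcgr3 turned to -0.016 with library size scaling. The interaction count (1) was 6 with DESeq2, 2 without a filter, 2 without small tumors, 2 without the tumors of 1 identifier and 0 to 2 with each pool left out, and Fcgr1 turned to -0.0106 with library size scaling. With each pool left out, differences that changed sign ranged from -0.0138 to 0.0667 (Fcgr1, all hosts), -0.0029 to 0.072 (Fcgr3, responders), -0.0254 to 0.125 (Fcgr2b, non-responders), and -0.0433 to 0.1656 (Fcgr2b) and -0.1323 to 0.019 (Fcgr3) in the interaction. The replicate block changed no other call of a member in the edgeR fits.

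Between hosts 6464 of 12510 genes were called. The count was 1671 of 13010 with the pool as a replicate block (added after seeing the data) and 3677 of 12510 with a batch term. It was 4139 of 10266 in cluster 2, 2184 of 9183 in cluster 5, 3550 of 10729 in cluster 26 and 1037 of 6523 in cluster 21. The F statistic of Fcgr1 was 2.75 in cluster 21, that of Fcgr3 3.56 in cluster 2, 3.29 in cluster 5 and 1.23 to 3.18 with each pool left out, and that of Fcer1g 2.33 in cluster 5, 1.73 in all cells and 2.60 in cluster 21. Of the 15 correlations 9 passed, and 4 without small tumors, 2 in pools 1 to 6 and 5 without the 2 farthest tumors. Fcgr1 with Fcgr2b turned to -0.0886 in pools 1 to 6 and -0.0149 without the 2 farthest tumors. With the replicate block, as differences within pairs (added after seeing the data), 3 passed by Pearson's r, Fcgr1 with Fcgr2b was -0.1324, Fcgr1 with Fcgr3 -0.0288 and Fcgr3 with Fcer1g -0.1106. The ratio difference of 0.34 was 0.20 to 0.42 with each host left out (added after seeing the data). Small clusters and tumors limit the lowest levels.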
